A study of Homo sapiens with 5 samples.

Results

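The peroxiredoxins and the thioredoxin system were examined in HEK293 cells, an established human embryonic kidney line, through every probeset that the platform annotation assigns to PRDX1 to PRDX6, TXN, TXNRD1, SRXN1 or TXNIP. Of these 10 genes, 9 had at least 1 probeset in the annotation used, out of 19775 genes named on the array, and together they held 18 probesets out of 54613. PRDX5 had none in that annotation and was not analysed here. PRDX2 belongs to the list because the study reports it as lower from these same arrays, so its values are no independent evidence of its direction. The study also reports less PRDX2 protein in the PRL-1 line, by mass spectrometry of separately grown cultures, which was not analysed here.

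A pair of lines was compared, one stably transfected with pcDNA4-PRL-1 (2 arrays) and one stably transfected with empty pcDNA4 vector (3 arrays). PRL-1 is a small protein tyrosine phosphatase encoded by PTP4A1. Both lines were cultured alike in medium with serum, penicillin and streptomycin, with no further treatment, and each array held total RNA of a separate culture. Each group was a single stable line, so PRL-1 and whatever else sets the 2 lines apart cannot be told apart. A further PRL-1 array was set aside by the authors, on qRT-PCR of PRL-1.

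Peroxiredoxins are abundant enzymes that reduce hydrogen peroxide through a reactive cysteine. In the cytosolic 2-Cys members PRDX1 and PRDX2 the oxidised cysteine forms a disulfide with a partner subunit. Thioredoxin (TXN) reduces that disulfide and is itself recharged by thioredoxin reductase (TXNRD1) with electrons from NADPH. When peroxide overruns the cycle the cysteine can be hyperoxidised, and sulfiredoxin (SRXN1) restores it. TXNIP binds thioredoxin, limits its activity and also curbs glucose uptake. Transcription of TXNIP and of its relative ARRDC4 is known to follow the sugar-sensing factor MondoA with its partner MLX, while TXNRD1, SRXN1 and PRDX1 are known targets of NRF2, the main transcription factor of the antioxidant response.

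The windows of 250 bases before a start site are given for 4 genes on which the results below turn, read 5′ to 3′ on the gene's strand from RefSeq (GRCh38.p14). They are TXNIP (chr1:145996580-145996829, minus strand) and ARRDC4 (chr15:97960453-97960702, plus strand), which were high together on 1 array, PRDX2 (chr19:12801801-12802050, minus strand), the peroxiredoxin with the smallest p, and TXNRD1 (chr12:104215529-104215778, plus strand), the member whose arrays labelled PRL-1 all lay above the vector arrays. Capitals mark a paired E-box (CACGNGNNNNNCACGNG) in TXNIP, an E-box (CACGTG) in ARRDC4 and the core of an antioxidant response element (TGACNNNGC) in TXNRD1.
TXNIP: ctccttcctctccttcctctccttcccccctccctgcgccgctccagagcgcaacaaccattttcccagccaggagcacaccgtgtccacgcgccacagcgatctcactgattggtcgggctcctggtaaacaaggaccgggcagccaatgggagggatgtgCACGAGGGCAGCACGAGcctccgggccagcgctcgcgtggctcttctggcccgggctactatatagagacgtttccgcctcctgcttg
ARRDC4: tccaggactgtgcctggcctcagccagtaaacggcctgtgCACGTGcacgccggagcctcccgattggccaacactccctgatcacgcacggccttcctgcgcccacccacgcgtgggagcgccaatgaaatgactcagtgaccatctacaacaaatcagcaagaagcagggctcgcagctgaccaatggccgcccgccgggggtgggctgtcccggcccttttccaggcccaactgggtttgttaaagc
TXNRD1: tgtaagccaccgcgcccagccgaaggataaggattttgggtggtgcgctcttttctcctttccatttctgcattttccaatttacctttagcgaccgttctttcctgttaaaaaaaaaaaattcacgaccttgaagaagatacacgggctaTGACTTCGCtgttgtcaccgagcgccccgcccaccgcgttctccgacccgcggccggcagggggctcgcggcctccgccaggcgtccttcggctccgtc
PRDX2: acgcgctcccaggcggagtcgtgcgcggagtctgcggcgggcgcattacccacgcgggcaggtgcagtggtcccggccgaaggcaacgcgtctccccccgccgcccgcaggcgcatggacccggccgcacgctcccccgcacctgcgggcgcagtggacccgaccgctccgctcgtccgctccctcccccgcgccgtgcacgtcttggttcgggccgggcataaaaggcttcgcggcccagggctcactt

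Each motif was searched on both strands, and the E-box, which reads alike on both, was counted once. The paired E-box was searched as a single pattern, among the paired elements that Mondo factors are known to bind. It occurred in 0.0456% of the 35116 windows of this length, the E-box in 6.34% and the antioxidant core in 10.9%. The share of the paired E-box holds for that pattern alone, since no other form of the element was searched. In TXNIP the paired E-box lay 88 to 72 bases before the start as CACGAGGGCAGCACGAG. The E-box of ARRDC4 lay 210 to 205 bases before the start, and the antioxidant core of TXNRD1 99 to 91 bases before it. Another TXNRD1 window held the core too, on the opposite strand, 102 to 94 bases before that start. PRDX3 and PRDX4 each held an E-box, at 157 to 152 and at 83 to 78 bases before the start. The windows of GPX1 and NXN, which are not members and are described below, were searched too. GPX1 held an E-box at 24 to 19 bases before the start, and NXN held none of the 3 motifs. None of the 3 motifs was found in the windows of PRDX2, TXN, SRXN1 or PRDX5, or in the other TXNIP window. Windows were matched for 8 of the 10 genes, all but PRDX1 and PRDX6. A match of letters is a description of the window and not a bound site.

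Signals were MAS5 values, intensities on a linear scale set by the authors to a common trimmed mean on every array, and a probeset was tested where it reached 100 on at least 2 arrays. The 4 tested probesets of PTP4A1 gave log2 fold changes of 0.06 to 0.15 (limma adjusted p = 0.7368 to 0.8917), and it is not known here whether they lie within the transgene's transcript, so groups are named by their labels. The study describes this line as holding more PRL-1 mRNA and protein than the vector line, from earlier work on the line. Vector replicate 3 stood apart, with correlations of 0.938 to 0.947 to the other arrays, against 0.954 to 0.964 among the rest. Among markers of HEK293 cells, NEFL, VIM, KRT18, KRT8, CDH2 and PAX2 reached 100 on all 5 arrays, LHX1 on 2 and NEFM on 0. None of these passed limma between the groups, though KRT8 (log2 fold change 0.94), VIM (-0.53) and PAX2 (-0.75) had an unadjusted p under 0.05, and without vector replicate 3 KRT8 was called (1.19, adjusted p = 0.00163). Of markers of blood, liver, fibroblasts, endothelium and glia, PTPRC, ALB, CDH5 and GFAP stayed under 100 on every array, COL3A1 reached it on 3 and CD3E, HBB, COL1A1 and PECAM1 on 5, their brightest signals being 266.7, 719.1, 1047.8 and 614.8. None of the measured markers of other cells passed the test between the groups (lowest adjusted p = 0.5271 for PECAM1), and their part in the results was not tested.

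**Figure D1:**
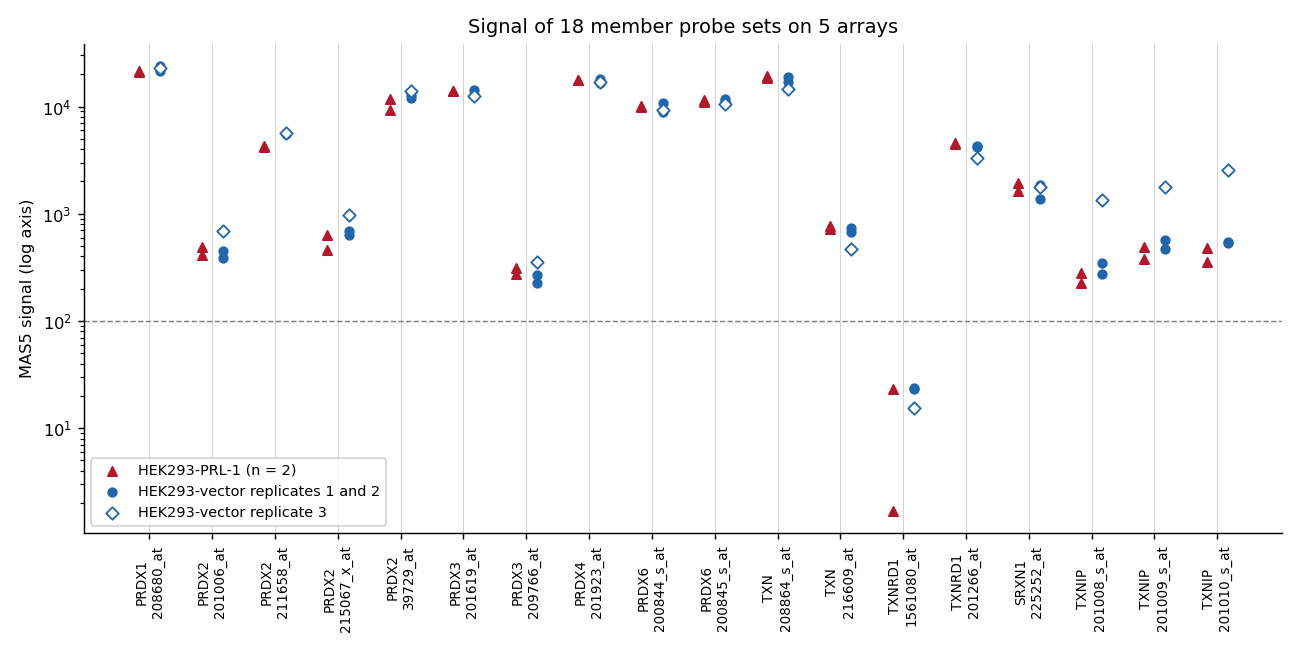
MAS5 signal (log axis) of the 18 probesets on the 2 arrays labelled HEK293-PRL-1 (triangles), on HEK293-vector replicates 1 and 2 (circles) and on HEK293-vector replicate 3 (open diamonds), with a dashed line at 100. Most groups overlap, while those of PRDX1, PRDX2 211658_at, 215067_x_at and 39729_at, TXNRD1 201266_at and TXNIP 201010_s_at do not. The 3 TXNIP probesets show a single high array, HEK293-vector replicate 3, at 1333 to 2586.

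None of the 17 tested probesets of the family passed limma at an adjusted p of 0.05, in either direction, where 0.192% of all 33818 tested probesets did (0.0591% higher and 0.133% lower on arrays labelled PRL-1). At an unadjusted p of 0.05 limma gave 1 of 17, which was PRDX2 211658_at, against 9.72% of all probesets. The methods' t-test, run here on the same 33818 probesets, gave 0 at 0.05 after Benjamini-Hochberg adjustment and 1 before it, again PRDX2 211658_at, against 8.59% of all probesets before adjustment. The study itself adjusted over a smaller set that MAS5 called present and used another threshold, so these are not its counts. By the brightest probeset of each gene, 5 genes lay above 0 and 4 below, with a median log2 fold change of 0.04, beside -0.03 over all 14546 genes. Groups did not overlap in 5 of 17 probesets with the arrays labelled PRL-1 lower (16.1% of all probesets) and in 1 with them higher (12.8% of all). In RNA from whole cultures, fewer cells with a transcript and less transcript per cell cannot be told apart.

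PRDX2, a cytosolic 2-Cys peroxiredoxin, gave the smallest p of the family. Its probeset 211658_at read 4257 and 4240 on the arrays labelled PRL-1, against 5651, 5572 and 5722 on the vector arrays. The groups did not overlap, and replicates within each group lay close together. The means were 4248 ± 12.5 in cells labelled PRL-1 (SD, n = 2) and 5648 ± 75.4 in vector cells (SD, n = 3), 1.33-fold lower in cells labelled PRL-1. On the log2 scale this was -0.41, with a 95% interval of -0.64 to -0.18 (limma adjusted p = 0.2588). The SD of its log2 signals over the vector arrays was 0.019, and 99.2% of tested probesets had a larger or equal SD. The methods' t-test, which takes the spread from this probeset alone, gave an adjusted p of 0.125 over the 33818 probesets tested here, a larger set than the study adjusted over.

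The remaining 3 PRDX2 probesets also had lower means on the arrays labelled PRL-1, and none was called. Probeset 39729_at, designed on the same GenBank entry as 211658_at and so not an independent reading of the transcript, gave 11841 and 9375 on the arrays labelled PRL-1, against 12138, 12726 and 13869 on the vector arrays. The groups did not overlap, but the PRL-1 arrays differed from each other by more than the nearer one differed from the vector arrays. It stood at -0.29 on the log2 scale (interval -0.59 to 0.01, limma adjusted p = 0.5237). Probeset 215067_x_at gave 636 and 462.9 on the arrays labelled PRL-1, against 639.5, 684.3 and 982.1 on the vector arrays. The highest PRL-1 signal and the lowest vector signal nearly touched, and the log2 fold change was -0.48 (interval -0.98 to 0.02, limma adjusted p = 0.5256). Probeset 201006_at gave 412 and 492.3 on the arrays labelled PRL-1, against 446.1, 386.5 and 688.5 on the vector arrays, and the groups overlapped (log2 fold change -0.13, limma adjusted p = 0.8998). The size of the PRDX2 difference ran between -0.48 and -0.13 over its 4 probesets on all 5 arrays. Single arrays moved it: 215067_x_at gave -0.25 without PRL-1 replicate 2, -0.29 without vector replicate 3 and -0.71 without PRL-1 replicate 1. For 39729_at the log2 fold change was -0.12 when PRL-1 replicate 2 was left out and -0.46 when replicate 1 of that group was. Without vector replicate 3 that of 201006_at lay on the other side of 0, at 0.12, and that of 211658_at was -0.40 (limma adjusted p = 0.05322), still above the threshold.

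**Figure D2:**
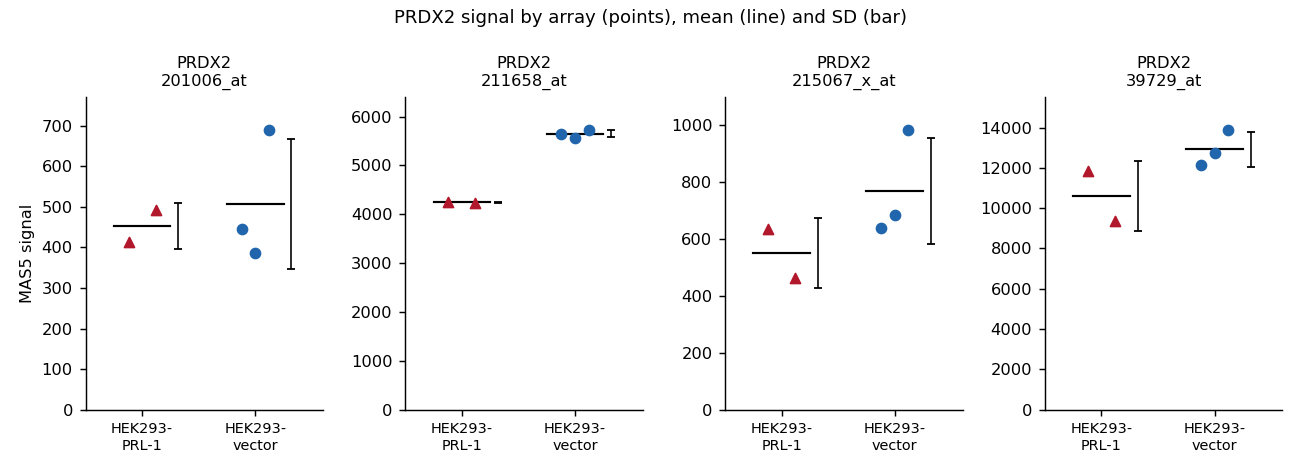
MAS5 signal of the 4 PRDX2 probesets on each array, HEK293-PRL-1 (triangles, n = 2) left of HEK293-vector (circles, n = 3), with the mean as a line and the SD as a bar, each axis from 0. Probeset 211658_at shows 4240 and 4257 against 5572 to 5722, while 201006_at overlaps between the groups.

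Of the remaining peroxiredoxins, PRDX1, the other cytosolic 2-Cys enzyme, gave 21255 and 21034 on the arrays labelled PRL-1, against 21681, 23791 and 22770 on the vector arrays. The groups did not overlap, though vector replicate 1 came near them, and the log2 fold change was -0.10 (interval -0.36 to 0.15, limma adjusted p = 0.7979), with the sign turned, at 0.01, after quantile normalization. PRDX3, the mitochondrial 2-Cys enzyme, gave 13990 and 13889 on the arrays labelled PRL-1 through 201619_at, against 12903, 14240 and 12502 on the vector arrays. Both PRL-1 signals fell inside the vector range, with a log2 fold change of 0.08 (limma adjusted p = 0.8512). Its dimmer probeset 209766_at, at 226.4 to 354.8 over the 5 arrays, gave 0.08 as well (limma adjusted p = 0.9348), and lay below 0 without PRL-1 replicate 2 (-0.01) or vector replicate 1 (-0.06).

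PRDX4, the peroxiredoxin of the endoplasmic reticulum, gave 17565 and 17639 on the arrays labelled PRL-1, against 16534, 17885 and 17026 on the vector arrays. The PRL-1 signals again lay within the vector range, with a log2 fold change of 0.04 (interval -0.21 to 0.28, limma adjusted p = 0.9348). PRDX6, the 1-Cys enzyme, which also has a phospholipase activity, gave 9893 and 10104 on the arrays labelled PRL-1 through 200844_s_at, against 8888, 10738 and 9223 on the vector arrays. Its probeset 200845_s_at gave 10912 and 11561 on the arrays labelled PRL-1, against 11355, 11820 and 10562 on the vector arrays. Neither probeset separated the groups (log2 fold change 0.06 and 0.00, limma adjusted p = 0.9007 and 0.9997), and the intervals together spanned -0.25 to 0.33.

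SRXN1, the repair enzyme of hyperoxidised peroxiredoxins, gave 1936 and 1617 on the arrays labelled PRL-1, against 1866, 1375 and 1769 on the vector arrays. The groups overlapped, and the log2 fold change was 0.10 (interval -0.27 to 0.46, limma adjusted p = 0.879). Its sign turned without PRL-1 replicate 1 (-0.03) or vector replicate 2 (-0.04).

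TXN and TXNRD1, which pass electrons to the cytosolic 2-Cys peroxiredoxins, had higher means on the arrays labelled PRL-1 in each tested probeset, without a call. TXN gave 19345 and 18419 on the arrays labelled PRL-1 through 208864_s_at, against 16919, 18924 and 14430 on the vector arrays. Vector replicate 3 was the lowest array, and the groups overlapped (log2 fold change 0.18, interval -0.13 to 0.49, limma adjusted p = 0.7075). The dimmer TXN probeset 216609_at gave 728 and 763.1 on the arrays labelled PRL-1, against 671.6, 735.8 and 471.6 on the vector arrays, with vector replicate 3 the lowest there too (log2 fold change 0.28, limma adjusted p = 0.6949).

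TXNRD1, whose antioxidant core is shown above, gave 4541 and 4446 on the arrays labelled PRL-1 through 201266_at, against 4155, 4313 and 3336 on the vector arrays. There was no overlap, with vector replicate 3 the lowest array and the other vector arrays near the PRL-1 arrays. On the log2 scale the difference was 0.20 (interval -0.10 to 0.50, limma adjusted p = 0.6745), and without vector replicate 3 it was 0.09 (adjusted p = 0.6752). The other TXNRD1 probeset, 1561080_at, stayed at or under 23.8 on all 5 arrays and was not tested. Without vector replicate 3 the TXN values were 0.08 and 0.08 (adjusted p = 0.7506 and 0.8048).

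TXNIP, the inhibitor of thioredoxin, had the largest differences between groups on the log2 scale in the family, and on that scale the widest spread between vector replicates. Its probeset 201010_s_at gave 353.8 and 475.5 on the arrays labelled PRL-1, against 532.9, 544.8 and 2586 on the vector arrays. No overlap was seen, but 1 vector array was 4.75-fold above the next highest array. Probeset 201008_s_at gave 277.3 and 224.9 on the arrays labelled PRL-1, against 273.1, 350 and 1333 on the vector arrays. Probeset 201009_s_at gave 381.5 and 492.1 on the arrays labelled PRL-1, against 468.3, 573.1 and 1767 on the vector arrays. In both of these the groups overlapped, and vector replicate 3 was the high array in all 3 probesets.

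The log2 fold changes of TXNIP were -1.15, -1.01 and -0.85, with limma adjusted p of 0.5782, 0.61 and 0.6135, and each interval held 0 (the widest from -2.50 to 0.20). Without vector replicate 3 they were -0.39, -0.31 and -0.26 (limma adjusted p = 0.3368, 0.5716 and 0.5651). The interval of 201010_s_at then ran from -0.78 to -0.01, while those of 201008_s_at and 201009_s_at still held 0. The SD of the log2 signals over the vector arrays was 1.31, 1.23 and 1.03, and 1.69% to 3.48% of tested probesets had an SD at least as large.

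**Figure D3:**
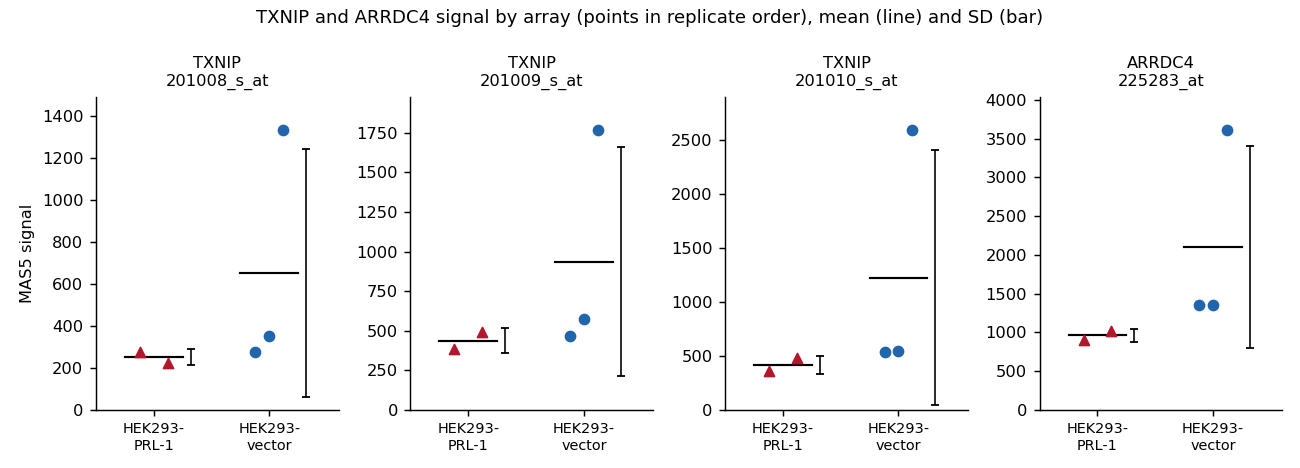
MAS5 signal of the 3 TXNIP probesets and of ARRDC4 on each array in replicate order, HEK293-PRL-1 (triangles, n = 2) left of HEK293-vector (circles, n = 3), with the mean as a line and the SD as a bar, each axis from 0. In all 4 panels HEK293-vector replicate 3 is the highest array, at 1333, 1767, 2586 and 3611.

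The other 4 arrays were averaged on the log2 scale, here and wherever vector replicate 3 is set against them. Relative to that mean, vector replicate 3 was 5.5-fold, 4.8-fold and 3.73-fold higher in the TXNIP probesets. On that array 0.068%, 0.109% and 0.346% of tested probesets were as high or higher. The median probeset of the array was 0.125 higher on the log2 scale. The remaining members lay between 0.65-fold (TXN 216609_at) and 1.64-fold (PRDX2 215067_x_at) on it. ARRDC4, an alpha-arrestin of the same family as TXNIP, gave 904 and 1017 on the arrays labelled PRL-1, against 1349, 1346 and 3611 on the vector arrays. Vector replicate 3 was again the high array, at 3.18-fold the others (0.692% of tested probesets as high or higher), but here the remaining vector arrays also lay above both PRL-1 arrays. The log2 fold change of ARRDC4 was -0.97 (limma adjusted p = 0.4603), and without vector replicate 3 it was -0.49 (adjusted p = 0.07403). The other alpha-arrestins measured were not high on vector replicate 3, where ARRDC3 was at 0.917-fold, ARRDC1 at 0.812-fold and ARRDC2 at 0.525-fold the mean of the other arrays.

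The 10 tested probesets of members other than PRDX2 and TXNIP lay between -0.10 and 0.28 on the log2 scale, with intervals between -0.45 and 0.73. The widest of them belonged to the dim probesets of TXN and PRDX3. Processed copies of several members exist in the genome, with 7 pseudogenes named after TXN in the gene table used, 4 each after PRDX2 and PRDX3, 2 after PRDX4 and 1 each after PRDX1 and SRXN1. Whether a probeset could also bind such copies was not tested.

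**Figure D4:**
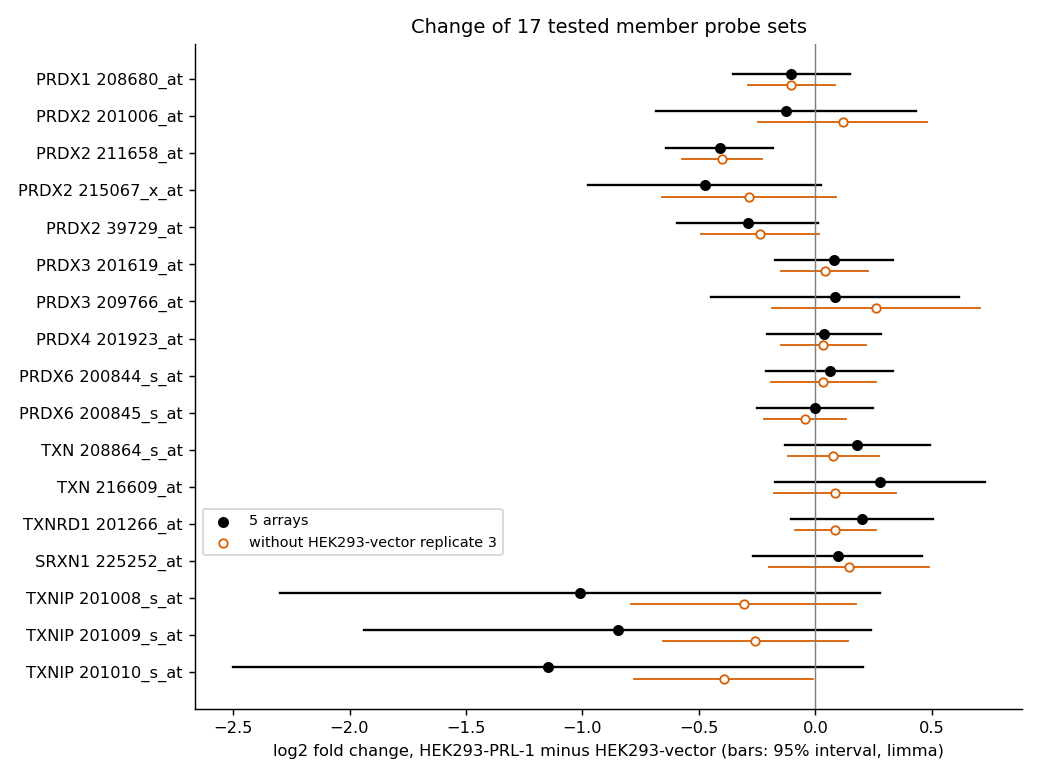
Log2 fold change (HEK293-PRL-1 minus HEK293-vector) of the 17 tested probesets with 95% intervals from limma, over 5 arrays (filled) and without HEK293-vector replicate 3 (open). PRDX2 211658_at lies at -0.41 and -0.40, whereas the 3 TXNIP probesets lie between -1.15 and -0.85 with that array and between -0.39 and -0.26 without it.

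Genes that work with the family were followed in 5 lists holding 66 genes, of which 60 were measured. None of the 60 was called in either direction by limma, where 0.247% of all 14546 genes were, by the brightest probeset of each gene. At an unadjusted p of 0.05 limma gave 10 of 60, beside 11.4% of all genes. The methods' t-test gave 9 of 60, with 0 after adjustment, beside 8.59% of all probesets, and its share over genes was not computed. Among thioredoxin and glutaredoxin partners (20 measured, 10 above 0 and 10 below, median -0.02 and 0.02 after median centring), NXN, nucleoredoxin, gave 1869 and 2121 on the arrays labelled PRL-1, against 1354, 1287 and 1121 on the vector arrays. The groups lay apart, and the log2 fold change was 0.67 (limma adjusted p = 0.1728). MSRB2, a mitochondrial methionine sulfoxide reductase, gave -0.67 (adjusted p = 0.4186), GLRX5, a glutaredoxin of iron-sulfur cluster assembly, 0.37 (0.513) and TXNL1 -0.22 (0.5254). Without vector replicate 3 MSRB2 stood at -0.40 and GLRX5 at 0.22.

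Among other enzymes of peroxide and superoxide, 1 of 7 measured genes lay above 0 and 6 below, with a median of -0.21. GPX1, the glutathione peroxidase that shares hydrogen peroxide as a substrate with the peroxiredoxins, gave 8697 and 7479 on the arrays labelled PRL-1, against 11295, 11845 and 11039 on the vector arrays. The groups did not overlap, and the log2 fold change was -0.50 (interval -0.76 to -0.24, limma adjusted p = 0.2288). GPX3, the secreted glutathione peroxidase, gave -0.47 (adjusted p = 0.4732), SOD1, the cytosolic superoxide dismutase, -0.21 (0.589) and CAT, catalase, -0.18 (0.6842).

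Regulators and targets of NRF2 lay above 0 in 5 of 17 measured genes, with a median of -0.06 that was 0.02 without PRL-1 replicate 2. NFE2L2, which encodes NRF2, gave 2938 and 3122 on the arrays labelled PRL-1, against 2452, 2541 and 2251 on the vector arrays, so that the groups did not overlap (log2 fold change 0.33, limma adjusted p = 0.4069). FTL, the light chain of ferritin, gave 12658 and 11786 on the arrays labelled PRL-1, against 8446, 8162 and 10931 on the vector arrays (0.42, adjusted p = 0.4069). SQSTM1, an autophagy receptor, gave -0.27 (adjusted p = 0.5664) and PGD of the pentose phosphate pathway -0.20 (0.629). Genes of oxidative folding, the setting of PRDX4, had a median of 0.15 over 9 genes (0.01 when the probesets of a gene were averaged), led by QSOX2 at 0.61 (adjusted p = 0.3062) and ERO1A, the oxidase that recharges protein disulfide isomerase, at 0.53 (0.3869), with PDIA3 at 0.21 (0.5572) and PDIA4 at 0.15 (0.6996). Alpha-arrestins and Mondo factors had a median of 0.01 over 7 genes (-0.12 without vector replicate 3), led by ARRDC4, with MLXIPL at -0.49 (adjusted p = 0.8134, and -0.12 without vector replicate 3), ARRDC3 at -0.23 (0.814) and MLXIP at 0.15 (0.8174). Without vector replicate 3, where 0.926% of tested probesets were called, NXN (0.59, limma adjusted p = 0.0393) and FTL (0.56, 0.0197) rose and GPX1 fell by 0.52 (0.0458), and 0 of the 17 probesets of the family were called.

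**Figure D5:**
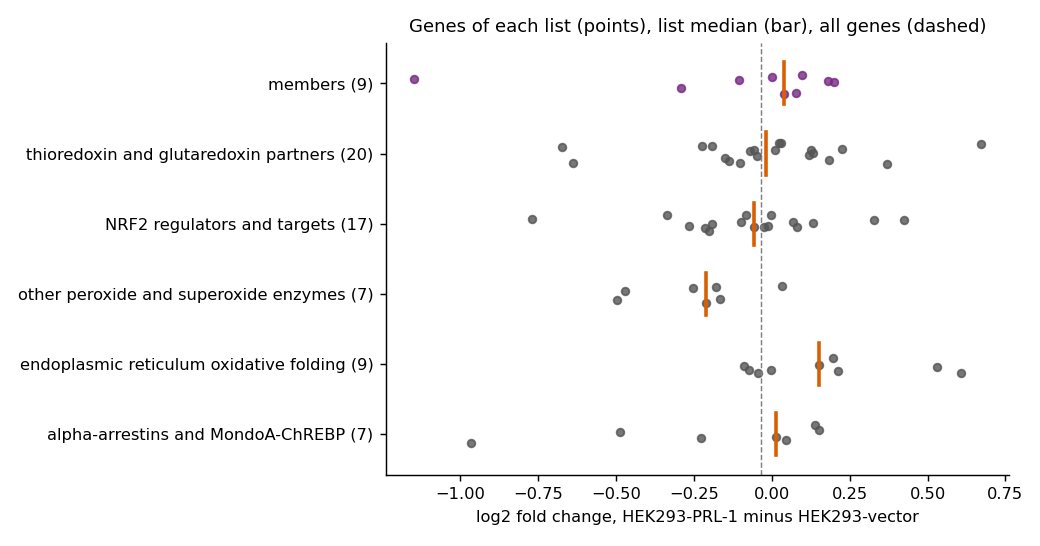
Log2 fold change (HEK293-PRL-1 minus HEK293-vector) of the measured genes of each list (points, brightest probeset per gene), with the list median as a bar, the number of genes in brackets and the median of all genes dashed. Members have a median of 0.04 and other peroxide and superoxide enzymes one of -0.21, beside -0.03 over all genes.

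The genes whose profile over the 5 arrays came nearest to the brightest PRDX2 probeset, 39729_at, were STK11, HLA-DOA, RAB12, FGD1 and TSPAN31, at root mean square distances of 0.0193 to 0.0273 on the centred log2 scale. With 5 arrays and 33818 probesets such closeness is a description only.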

How the data were processed

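Gene expression was measured on HG-U133 Plus 2.0 arrays, 1 per culture. The values deposited by the authors were MAS5 signals, that is 1 linear intensity for each probeset, computed with Bioconductor's affy. MAS5 subtracts mismatch estimates and scales each array, and every array had the same mean once its outer 2% on either side was trimmed, which ties a probeset's value to the rest of its array. No read depth applies, and the number of arrays limits precision.

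Of 54675 probesets, 62 controls were left out, and 33818 with a signal of at least 100 on at least 2 arrays were tested. Log2 signals were modelled in R 4.3.3 using limma 3.58.1 (lmFit, eBayes with an intensity trend, group as the only term, two-sided), with Benjamini-Hochberg adjusted p at or below 0.05 as a call. The fit was tested on simulated data with normal noise. There probesets of like intensity had a like spread and no array stood apart, unlike the arrays here. Genes were named through the platform annotation (41091 probesets with 1 symbol, 1801 with several and 11721 not listed). Coordinates are given for RefSeq start sites alone, since the sources used here do not name a build for the array.

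The members, the gene lists and the naming rule (all member probesets, up to 4 genes per list with the smallest p, the 5 profiles nearest to PRDX2) were chosen with earlier results of these data known. Nothing in the labels links same-numbered cultures of the groups, so p-values reflect only how cultures of 1 line vary. Alternatives covered the filter, quantile normalization, a log offset of 32, the replicate block, median centring, array weights, the trend, leaving out single arrays (the spread of a lone PRL-1 array was taken from the vector arrays), the probeset standing for a gene and the methods' t-test.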

Additional observations from a re-analysis of the deposited data

How the results depend on the processing

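The 17 tested probesets of the family kept a count of 0 calls under all 14 alternatives run. For PRDX2 211658_at the log2 fold change ran from -0.44 to -0.37 over them, with adjusted p from 0.0532 to 0.938. TXNIP 201010_s_at ran from -1.53 to -0.39, nearest to 0 without vector replicate 3 and with the replicate block.

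The count over all probesets was 65, against 275 with array weights, 9 without the trend, 0 with the methods' t-test (2905 at an unadjusted p of 0.05) and 11 to 313 with each array left out. It was 11 and 15 without PRL-1 replicates 1 and 2, 43 and 27 without vector replicates 1 and 2 and 313 without vector replicate 3. For the genes of the 5 lists together it was 0, against 2 with array weights, 3 with the replicate block and 0 to 3 with each array left out. With array weights 1 of the thioredoxin and glutaredoxin partners (NXN) and 1 of the other peroxide and superoxide enzymes (GPX1) passed. With the replicate block 1 passed in each of these lists and 1 among NRF2 regulators and targets (FTL), and each of the 3 lists gave 0 to 1 with each array left out.

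Deviations of same-numbered cultures correlated at 0.064 and -0.059, and those of differently numbered cultures at 0.059 and -0.064. The deviations of the 2 PRL-1 arrays from their mean mirror each other, so these values cannot decide on pairing. With no link in the labels, numbers were not taken to pair the cultures. The replicate block gave 448 calls over all probesets, and since no PRL-1 array carries number 3, it leaves vector replicate 3 out of the comparison.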

Other observations

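On vector replicate 3, 9 of the 77 probesets of members and list genes lay at least 1 above the mean of the other 4 arrays on the log2 scale, beside 4.79% of all tested probesets. They belonged to 7 genes, chosen here after their values were seen: TXNIP and ARRDC4, described above, and SLC7A11, SESN2, MLXIPL, HMOX1 and MSRB2. SLC7A11, the cystine importer that feeds glutathione synthesis, gave 954.9 and 676.1 on the arrays labelled PRL-1, against 877.2, 843.3 and 3488 on the vector arrays, 4.2-fold on that array. SESN2, a stress-induced sestrin, gave 886.8 and 701 on the arrays labelled PRL-1, against 990.5, 911.5 and 2044 on the vector arrays. HMOX1, heme oxygenase, gave 361.4 and 321.8 on the arrays labelled PRL-1, against 361.9, 301.9 and 731.1 on the vector arrays. On vector replicate 3 TXNRD1 and both TXN probesets were low, at 0.765-fold, 0.785-fold and 0.652-fold the mean of the others, and SRXN1 stood at 1.05-fold.

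The named genes whose profile came nearest to TXNIP 201010_s_at over the 5 arrays, a search added after the values were seen, were PCK2, CIRBP, CTH (in 2 probesets) and LINC02806, at distances of 0.1497 to 0.3044. PCK2, the mitochondrial form of phosphoenolpyruvate carboxykinase, gave 402.5 and 472 on the arrays labelled PRL-1, against 616.1, 578.6 and 2249 on the vector arrays. CTH, which makes cysteine from cystathionine, gave 485.2 and 570.3 on the arrays labelled PRL-1 through 217127_at, against 879.9, 849.3 and 2645 on the vector arrays. In PCK2, CIRBP and both CTH probesets the remaining vector arrays also lay above the arrays labelled PRL-1, while in LINC02806 they overlapped with them.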
